A study of Mus musculus with 4 samples.

Results

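The 10 genes described here encode transcription factors of the AP-1 group (Junb, Jun, Jund, Fos, Fosl2 and Atf3) and 4 other products of the immediate early response (Egr1, Ier2, Ier3 and Klf6). They were chosen by name, with earlier results of this comparison known: Junb had been seen to rise and Egr1 to fall in cells lacking Naa10. Their differences between genotypes are therefore a description, and where the fit across all rows is cited for them, its calls are counted and support nothing. Each of the 10 was found in 1 of the 14099 named rows of the deposited tables. All 10 lay above 1 RPKM (read counts scaled to transcript length and library size) in every library, so none was lost to the filter on low values. The row of Ier2 is joined with its neighbour Nacc1, and the level of Ier2 alone cannot be separated.

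The study sequenced polyadenylated RNA from mouse embryonic stem cells (ESCs), with 2 libraries of wild-type (WT) and 2 of Naa10 knockout (Naa10-KO) cells. Naa10 is the catalytic subunit of NatA, which acetylates the N-termini of many newly made proteins. Both genotypes were F1 hybrids of C57BL/6 and JF1, an inbred mouse strain, derived from the inner cell mass of blastocysts of one cross in which the C57BL/6 mothers carried the knockout, and the WT cells came from littermates. All cells grew in N2B27 medium with LIF, the Mek inhibitor PD325901 and the Gsk3 inhibitor Chir99021, first on irradiated embryonic fibroblasts (5 passages) and then without feeders (5 passages). The labels call the libraries biological replicates without saying whether they came from separate lines or from cultures of 1 line, so the spread between them may be partly technical. The labels do not say which exons of Naa10 were removed.

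Immediate early genes are transcribed within minutes of a signal, without new protein synthesis, and their transcripts are short-lived. AP-1 is a dimer of a Jun protein with a Fos, Jun or ATF partner. Its site was searched for here with the loose pattern TGANTCA, where N is any base. The Mek-Erk kinases feed this response through serum response factor and its ternary complex partners, and the Mek inhibitor of the naive ESC medium dampens that route.

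The row that holds Naa10, joined with Renbp, stood at 105 and 106 RPKM in WT versus 28.9 and 34.4 RPKM in the knockout, so both libraries labelled Naa10-KO lay below both WT libraries. The depth was estimated from the steps between low values at 50900000 and 51800000 fragments for WT and at 73800000 and 85100000 for Naa10-KO. On log2(RPKM + 1), the median absolute difference between libraries of a genotype was 0.05 for WT and 0.25 for Naa10-KO. The 12 ESC markers were all above 0 in every library and summed to 4538 RPKM in the first knockout library and 5692 RPKM in the second, with 5356 and 5433 RPKM for WT. The largest part was the row of Dppa5a, joined with Ooep, at 2476 and 2578 RPKM in WT versus 1698 and 2018 RPKM in the knockout. Both knockout libraries lay above WT for 3 of the 12 (Pou5f1, Utf1 and Tdgf1, 24.4% of all tested rows) and below for 2 (34.9%). The groups overlapped for 7, among them Nanog and Sox2. The summed level of 19 fibroblast feeder markers was 159.6 and 166 RPKM in WT, 579.5 RPKM in Naa10-KO replicate 1 but only 117 RPKM in replicate 2. Among them Col1a1 stood at 14.3 and 14.9 RPKM in WT versus 36.9 and 8.47 RPKM in the knockout libraries, and Tagln at 19.7 and 20.2 RPKM against 192 and 19.6 RPKM. Acta2 stood at 26.1 and 26.4 RPKM against 132 and 26.4 RPKM, so the sum in replicate 1 leaned on Tagln and Acta2. The list was not uniform. Postn stood at 13.1 and 14.1 RPKM against 14.2 and 2.16 RPKM, and Lum and Pdgfrb lay below both WT libraries in both knockout libraries. None of the 19 was at 0 in any library, including the defining genes Col1a1, Col1a2 and Thy1. In bulk RNA, fewer cells of a type and less RNA per cell cannot be told apart. Naa10-KO replicate 2 lay below both WT libraries for 16 of the 18 tested markers (48.3% of all tested rows). Replicate 1 lay above both WT libraries for 16 of the 18 (38.3% of all tested rows). The Naa10-KO libraries thus stand apart from WT in opposite directions in most of these markers, and each gene below is given per library.

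In WT cells the 10 genes differed widely in level per unit length. Egr1, a zinc finger transcription factor, was the most abundant at 238 and 211 RPKM, above 97.0% and 96.5% of the tested rows in WT replicates 1 and 2. The joined row of Ier2, an immediate early nuclear protein, and Nacc1 followed at 205 and 209 RPKM, close to Egr1 in replicate 2. Jund (63.9 and 61.5 RPKM) and Klf6, a Krüppel-like transcription factor (62.8 and 61.1 RPKM), did not differ beyond the spread of the WT libraries. Junb lay below them at 41.8 and 42.0 RPKM. Jun (33.8 and 36.7 RPKM) and Fos (35.8 and 34.1 RPKM) interleaved. So did Ier3, a regulator of cell survival (12.8 and 11.8 RPKM), and Atf3, a stress-induced factor of the ATF group (12.2 and 11.6 RPKM). Fosl2 was lowest at 3.79 and 3.56 RPKM, above only 25.4% and 24.4% of the tested rows. The WT libraries differed by 0.477% (Junb) to 12% (Egr1) of the mean for these genes.

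**Figure D1:**
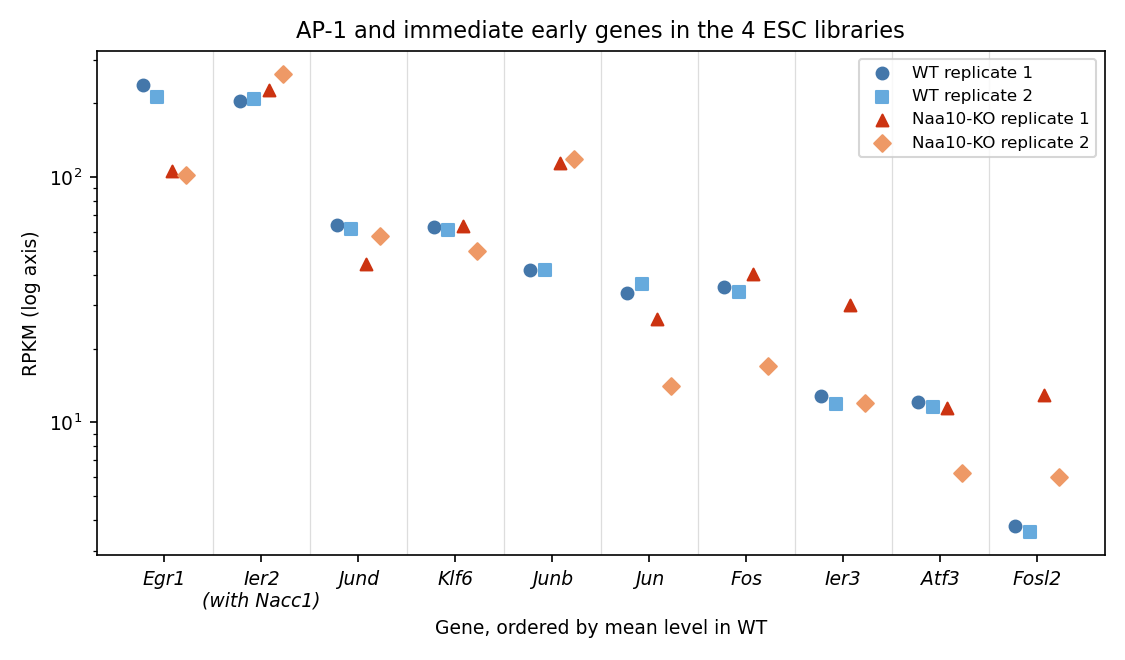
Level of the 10 genes in each library, in RPKM on a log axis, ordered by the WT mean; each point is 1 library. Junb lies at 41.8 and 42.0 RPKM in WT and near 3 times that in both Naa10-KO libraries, Egr1 lies lower in both, and the Naa10-KO points of Jun, Fos, Fosl2, Ier3 and Atf3 lie far from each other.

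Junb was higher by a similar factor in both Naa10-KO libraries. JunB pairs with Fos proteins and can restrain the activity of c-Jun. It stood at 114 and 119 RPKM in Naa10-KO against 41.8 and 42.0 RPKM in WT, or 117 ± 3.23 against 41.9 ± 0.141 RPKM (SD, n = 2 each). The level relative to the WT mean was 2.73 in replicate 1 and 2.84 in replicate 2. The Naa10-KO libraries differed by a factor of 1.04, and the groups lay far apart. Junb went from above 82.4% of the tested rows in both WT libraries to above 93.5% and 93.7% in the Naa10-KO libraries.

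The other Jun genes lay lower. Jun, the founding AP-1 subunit, stood at 26.4 and 14.2 RPKM in Naa10-KO, or 74.9% and 40.1% of the WT mean. Both values were below both WT values, but they differed from each other by a factor of 1.87. Jund, whose transcript is the least inducible of the 3 in most cells, stood at 44.3 and 57.9 RPKM, or 70.5% and 92.2% of the WT mean. Its Naa10-KO libraries were also both below WT, with replicate 1 the lower for Jund and replicate 2 the lower for Jun.

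The make-up of the Jun family transcripts differed between genotypes. Junb held 29.9% (replicate 2) to 30% (replicate 1) of the summed RPKM of the 3 genes in WT, and 61.8% and 62.3% in Naa10-KO. Jund, the leading transcript in WT at 45.8% and 43.9%, held 23.9% and 30.3% in Naa10-KO. Jun went from 24.2% and 26.2% to 14.3% and 7.41%. The summed level was 139.5 and 140.2 RPKM in WT versus 185 and 191 RPKM in the knockout. These shares compare genes per length within a library, so they do not depend on scaling between libraries.

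**Figure D2:**
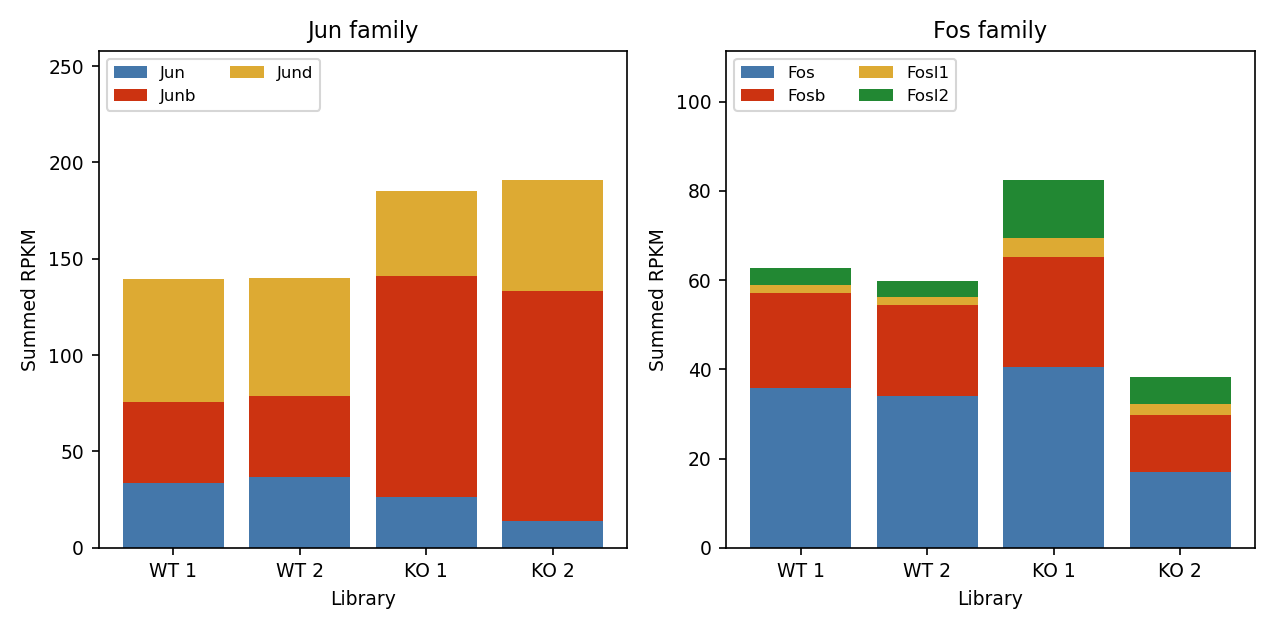
Summed RPKM of the Jun family (left) and the Fos family (right) in each library, split by gene; each bar is 1 library and starts at 0. Junb takes 61.8% and 62.3% of the Jun family in Naa10-KO against 30% and 29.9% in WT, while the Fos family total is highest in Naa10-KO replicate 1 and lowest in replicate 2.

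The Fos family behaved differently, with Naa10-KO libraries on both sides of WT. Fos, the classic immediate early gene, stood at 40.5 RPKM in Naa10-KO replicate 1 and at 16.9 RPKM in replicate 2, against 35.8 and 34.1 RPKM in WT. Replicate 1 was thus above both WT libraries and replicate 2 below both. Fosb, a close relative that is not among the 10, did the same, at 24.8 and 12.9 RPKM against 21.2 and 20.3 RPKM in WT. Fosl2, which encodes the Fos-related protein Fra-2, stood at 13.0 and 6.02 RPKM, or 3.54 and 1.64 times the WT mean. Both were above WT, but replicate 1 was 2.16 times replicate 2. Fosl1, which encodes Fra-1, had 1.85 and 1.88 RPKM in WT versus 4.28 and 2.46 RPKM in the knockout. The summed Fos family level was 62.7 and 59.9 RPKM in WT, 82.5 RPKM in Naa10-KO replicate 1 and 38.3 RPKM in replicate 2. Within it, the share of Fosl2 was 6.05% and 5.95% in WT and 15.8% and 15.7% in Naa10-KO, alike in both knockout libraries although their totals differed.

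The regions before the starts of Junb, Jun and Fos are shown because these 3 subunits went apart in Naa10-KO: Junb higher in both libraries, Jun lower in both and Fos on opposite sides of WT. Each line gives 250 bases before and 30 after the RefSeq transcript start, 5′ to 3′ on the gene's strand, from the GRCm38.p6 build at chr8:84978719-84978998 (minus strand), chr4:95052193-95052472 (minus strand) and chr12:85473640-85473919 (plus strand). Capitals mark the motifs found.
Junb: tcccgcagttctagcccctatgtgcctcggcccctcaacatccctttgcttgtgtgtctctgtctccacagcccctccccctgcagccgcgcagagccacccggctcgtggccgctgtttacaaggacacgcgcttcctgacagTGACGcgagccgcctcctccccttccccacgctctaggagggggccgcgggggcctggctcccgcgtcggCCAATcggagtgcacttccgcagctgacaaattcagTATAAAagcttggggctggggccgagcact
Jun: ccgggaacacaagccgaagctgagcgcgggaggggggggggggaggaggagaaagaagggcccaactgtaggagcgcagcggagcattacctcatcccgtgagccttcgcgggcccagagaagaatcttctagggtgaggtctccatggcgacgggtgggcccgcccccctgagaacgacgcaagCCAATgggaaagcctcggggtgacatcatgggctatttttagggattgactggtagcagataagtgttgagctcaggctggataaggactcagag
Fos: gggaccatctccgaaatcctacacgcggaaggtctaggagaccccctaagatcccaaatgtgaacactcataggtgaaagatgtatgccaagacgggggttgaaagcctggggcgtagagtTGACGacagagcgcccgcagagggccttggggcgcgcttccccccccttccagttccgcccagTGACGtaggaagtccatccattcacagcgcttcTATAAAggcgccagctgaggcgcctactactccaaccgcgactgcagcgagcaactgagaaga
The motifs, searched on both strands, were the AP-1 site TGANTCA, the cAMP response element TGACGTCA and its core TGACG (which it contains), the CCAAT box CCAAT, the TATA box TATAAA, the Egr site GCGNGGGCG, the STAT site TTCNNNGAA and the CArG box of serum response factor. The set of RefSeq promoters at hand held 8 of the 10 genes. Egr1 and Ier2 were not in it, so their promoters were not searched. Junb held the cAMP response core, the CCAAT box and the letters of the TATA box. In Junb these letters lay at 0 to 6 from the annotated start, not before it. Fos held the cAMP response core at 2 places and the TATA box, at -33 to -27 from the start, and Jun held the CCAAT box alone. Among the 8, the core TGACG was in 3 (Junb, Fos and Atf3), the CCAAT box in 5, the TATA box in 2 and the Egr site in 1 (Fosl2). Of all 32851 RefSeq promoters of this length, 19.9% held the core TGACG, 36.1% the CCAAT box, 13.1% the TATA box and 5.3% the Egr site. The AP-1 pattern, cAMP response element, STAT site and CArG box were in none of the 8 windows and in 7.46%, 1.74%, 7.83% and 1.56% of all promoters. A missing match says only that these letters are not in this window.

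Egr1 was lower by a similar factor in both Naa10-KO libraries. It stood at 106 and 102 RPKM against 238 and 211 RPKM in WT, or 104 ± 2.71 against 225 ± 19.1 RPKM (SD, n = 2 each). The values were 47.1% and 45.4% of the WT mean. Egr1 was still abundant, above 92.9% and 92.8% of the tested rows. The joined row of Ier2 and Nacc1 was slightly higher, at 227 and 264 RPKM against 205 and 209 RPKM, or 1.10 and 1.28 times the WT mean. In Naa10-KO this joined row had the highest level of the 10, followed by Junb and then Egr1. In WT, Egr1 stood above the joined row in replicate 1 (238 against 205 RPKM) and close to it in replicate 2 (211 against 209 RPKM).

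Ier3, Atf3 and Klf6 were not alike in the knockout libraries. Ier3 stood at 30.1 RPKM in Naa10-KO replicate 1, 2.44 times the WT mean, and at 12 RPKM in replicate 2, between the WT values. Atf3 stood at 11.5 RPKM in replicate 1, just below WT, and at 6.23 RPKM in replicate 2, or 52.5% of the WT mean. Klf6 stood at 63.4 and 49.9 RPKM, 1.02 and 0.805 times the WT mean, on opposite sides of WT. The WT and Naa10-KO ranges thus overlapped for Ier3 and Klf6 and lay narrowly apart for Atf3.

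Counted over the 10 genes, both Naa10-KO libraries were above both WT libraries for 3 (Junb, Fosl2 and the Ier2 row) and below both for 4 (Egr1, Jun, Jund and Atf3), and the groups overlapped for 3 (Fos, Ier3 and Klf6). Of all 11912 tested rows, 24.4% lay above and 34.9% below in the same sense, 59.3% together, so 7 of 10 is close to what rows at large did. The limma fit across all rows placed Junb among the higher rows and Egr1 among the lower ones at a Benjamini-Hochberg adjusted p under 0.05, where 0.218% of rows were higher and 0.546% lower. Of the 91 rows so placed, 53 were small RNA rows or rows at 0 in a library. Taken library by library, replicate 1 of Naa10-KO was above both WT libraries for 6 of the 10 genes (38.3% of tested rows) and below both for 4 (54.6%), and replicate 2 was above for 3 (41.8%) and below for 6 (48.3%), with Ier3 between. A distance of over 2-fold above the WT mean was reached in replicate 1 by Junb, Fosl2 and Ier3 (4.68% of rows above 0) and in replicate 2 by Junb alone (1.4%). A level under 0.5 of the WT mean was reached in replicate 1 by Egr1 (6.77%) and in replicate 2 by Egr1, Jun and Fos (3.32%). Since these same values chose the members, nothing is read from these counts. The median log2 difference over the 10 was -0.22, against -0.06 over all tested rows. The placing of Junb and Egr1 depended on which rows shared the adjustment: without rows listed at 0 and small RNA rows neither was placed so, and no row passed (2626 of 11660 had an unadjusted limma p under 0.05). Junb was also not placed so without either WT library, and Egr1 lost its place in 7 of 14 settings. Their log2 differences kept their size, from 1.38 to 1.52 for Junb and from -1.19 to -1.02 for Egr1, under every setting run.

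**Figure D3:**
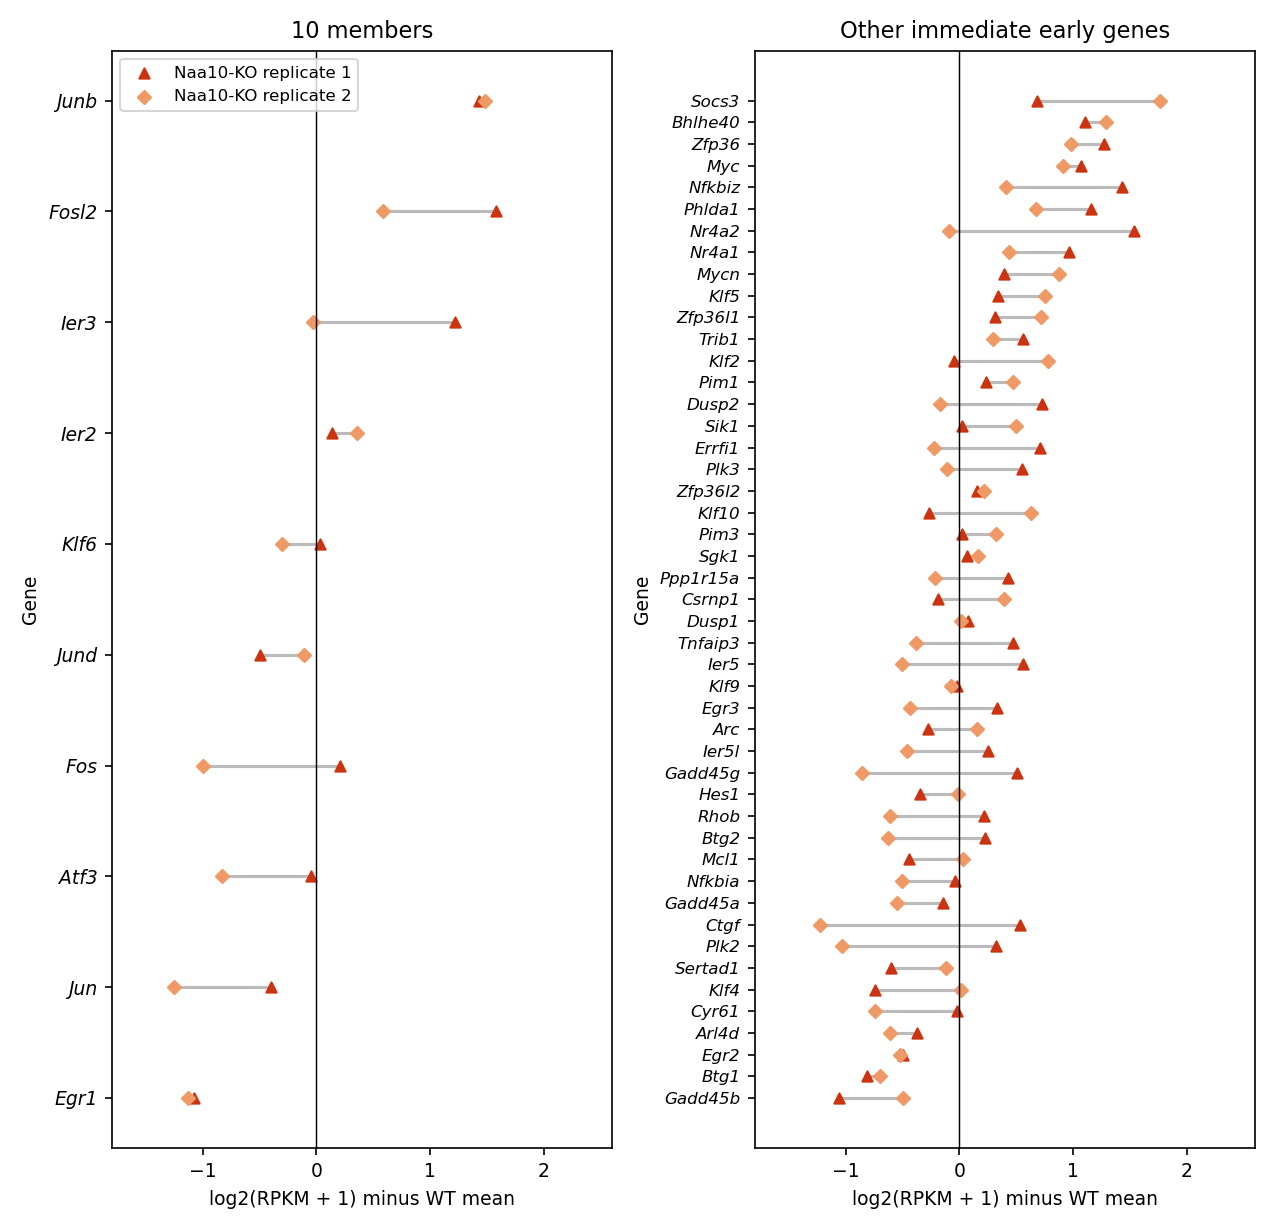
Difference of each Naa10-KO library from the WT mean on the log2(RPKM + 1) scale for the 10 genes (left) and 47 other immediate early genes (right), ordered by the mean difference; a triangle is replicate 1, a diamond replicate 2, and a grey line joins them. Junb and Egr1 have short lines far from 0, whereas Fos, Ier3 and Fosl2 have long ones.

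The 2 Naa10-KO libraries differed from each other for many of these genes. Naa10-KO replicate 1 was the higher for 7 of the 10 genes, against 45.3% of all tested rows. It exceeded replicate 2 by over 1.5-fold for 5 of the 10 (Ier3, Fos, Fosl2, Jun and Atf3, by factors from 1.84 to 2.51), and replicate 2 exceeded replicate 1 by that much for none. Among the 11768 rows above 0 in all libraries, 9.26% exceeded 1.5-fold in the first direction and 13.5% in the other, and 1.1% differed that much between the WT libraries. Estimated fragments per gene ran from 572 for Ier3 in WT replicate 2 to 51991 for Egr1 in WT replicate 1, so that counting alone would give errors of 4.18% to 0.439%. Fibroblast feeder markers were also higher in replicate 1. This held for 18 of 18 tested markers, 17 of them by over 1.5-fold, with summed levels of 579.5 and 117 RPKM against 159.6 to 166 RPKM in WT. Relative to WT the 5 genes were not all like the markers. In replicate 1, 16 of the 18 markers lay above both WT libraries, as did Fos, Fosl2 and Ier3. Jun and Atf3 lay below both. The part of the markers in the values of Fos, Fosl2, Ier3, Jun and Atf3 was not tested. The part of the markers in the values of Junb and Egr1, at 119 and 102 RPKM in replicate 2, was not tested either.

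**Figure D4:**
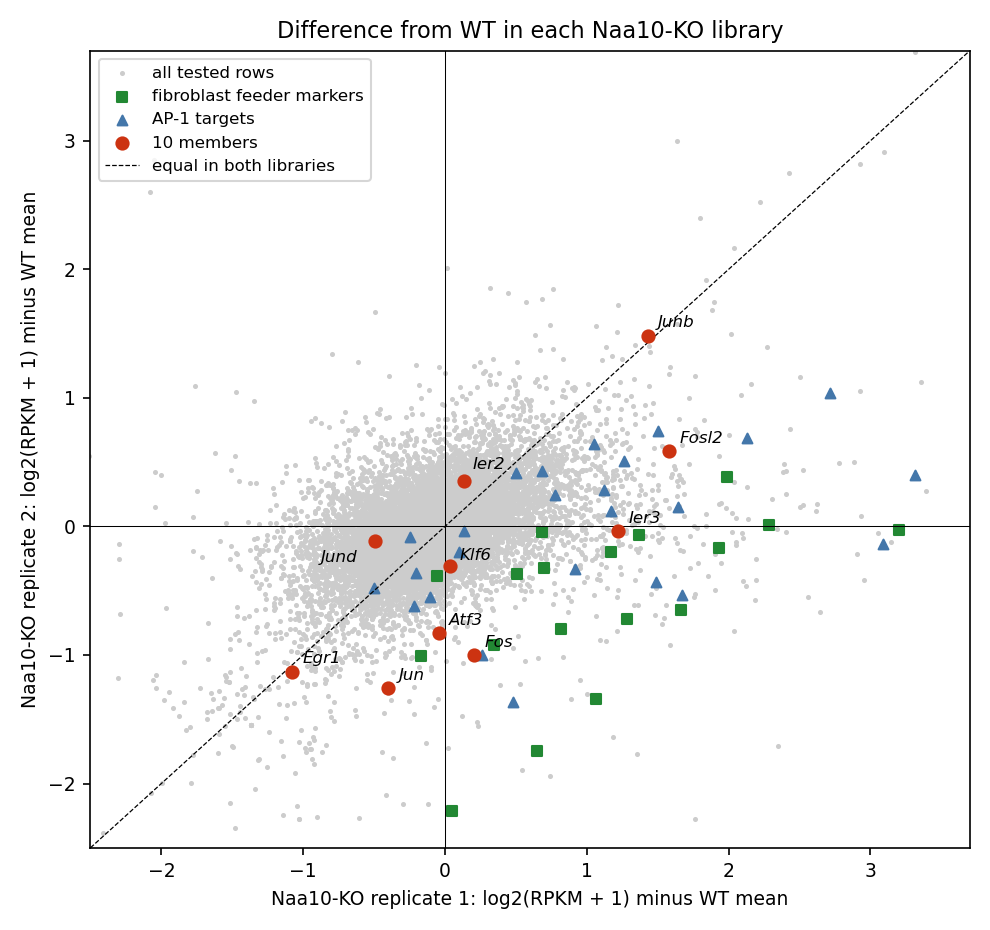
Difference from the WT mean in Naa10-KO replicate 1 (horizontal) and replicate 2 (vertical), on the log2(RPKM + 1) scale, for all tested rows (grey), fibroblast feeder markers, AP-1 targets and the 10 genes; the dashed line marks equal differences, and 90 rows lie beyond the axes. Junb and Egr1 sit on the dashed line at opposite ends, and 18 of 18 fibroblast markers lie to its right.

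Of 47 tested other immediate early genes, 1 rose and 46 did not pass the threshold, with 11 higher and 4 lower at an unadjusted limma p under 0.05. Of all rows, 2634 of 11912 were under that value in either direction. The one that rose was Bhlhe40, a basic helix-loop-helix repressor, from 25.3 and 24.2 RPKM to 54.4 and 62.0 RPKM (log2 change 1.20, SE 0.10, limma adjusted p = 0.0451). Its adjusted p ran from 0.00271 to 0.722 over the alternatives and was 0.0822 without rows at 0 and small RNA rows. The groups lay apart upward for 14 of the 47 and downward for 7, or 21 of 47 against 59.3% of all rows. The list's median difference was 0.10 over both Naa10-KO libraries, 0.24 in the first and -0.01 in the second. The most abundant of the list were Krüppel-like factors and a survival gene. Klf2 and Klf4 were also counted among the ESC markers. Klf5 stood at 320.0 and 267 RPKM in WT versus 369 and 493 RPKM in the knockout (limma adjusted p = 0.212). Klf2 (297 and 297 RPKM against 287 and 511 RPKM), Klf4 (205 and 191.5 RPKM against 118 and 201 RPKM) and Mcl1, an anti-apoptotic Bcl-2 relative (160.5 and 163 RPKM against 119 and 165 RPKM), overlapped between groups, with limma adjusted p of 0.504, 0.482 and 0.523. Each was higher in replicate 2 than in replicate 1.

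Several genes of this list, named after their values were seen, lay with Junb or with Egr1 in both libraries. Myc stood at 21.4 and 21.3 RPKM in WT versus 45.9 and 41.0 RPKM in the knockout (limma adjusted p = 0.054). Zfp36, whose protein binds AU-rich elements and speeds the decay of their mRNAs, stood at 19.1 and 19.4 RPKM against 48.0 and 39.0 RPKM (limma adjusted p = 0.0803). Socs3, a feedback inhibitor of LIF signalling, stood at 27.0 and 26.9 RPKM against 43.9 and 94.0 RPKM (limma adjusted p = 0.198). Egr2, a relative of Egr1, stood at 4.73 and 4 RPKM against 2.79 and 2.72 RPKM (limma adjusted p = 0.153). None of these 4 passed the threshold. They were picked from the 14 upward and 7 downward genes given above, so the lack of overlap between their groups follows from the choice. Of all tested rows, 59.3% did not overlap. The knockout libraries differed by a factor of 2.14 for Socs3.

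Further partners of AP-1 gave no call. Of 18 tested rows of ATF, Maf, BATF and Creb factors, Fosb, Fosl1 and the coactivators Crebbp and Ep300, 0 passed in limma. At an unadjusted limma p under 0.05, 1 was higher and 3 were lower, against 2634 of 11912 rows in either direction. Their median difference was 0.02. Atf4, the effector of the integrated stress response, was the most abundant at 421 and 406 RPKM in WT versus 357 and 326 RPKM in the knockout (limma adjusted p = 0.168). Atf1 (36.5 and 38.4 RPKM against 41.8 and 37.3 RPKM), Maff (33.8 and 33.2 RPKM against 31.3 and 47.9 RPKM) and Ep300 (30.8 and 29.8 RPKM against 35.9 and 32.7 RPKM) had limma adjusted p of 0.66, 0.614 and 0.331. Atf5 was listed at 0 in Naa10-KO replicate 2 and at 34.1 to 43.1 RPKM elsewhere, and an exact 0 in these tables can be a failed estimate.

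Upstream of the members, serum response factor (Srf) stood at 29.3 and 28.2 RPKM in WT versus 57.7 and 42.4 RPKM in the knockout (limma adjusted p = 0.141). The row of its partner Elk1, joined with Cfp, stood at 10.8 and 10.4 RPKM against 13.5 and 23.99 RPKM (limma adjusted p = 0.263), and the coactivator Mkl1 at 8.11 and 7.78 RPKM against 10.1 and 9.49 RPKM (limma adjusted p = 0.236). Nab2, a corepressor of Egr1 that is also its target, stood at 72.5 and 66.4 RPKM against 106 and 60.9 RPKM (limma adjusted p = 0.684). Of 9 rows of this group, 0 passed (1 higher and 0 lower at an unadjusted limma p under 0.05, against 2634 of 11912 rows in either direction). The median was 0.43, at 0.61 in replicate 1 and 0.07 in replicate 2. Of 30 kinases from receptors to MAP kinases, 0 passed, with a median of 0.05. At an unadjusted limma p under 0.05, 3 were higher and 2 lower, against the same 2634 of 11912 rows. Mapk3, which encodes an Erk kinase, had 66.7 and 65.2 RPKM against 54.3 and 84.8 RPKM (limma adjusted p = 0.926). Rps6ka1, an Erk-activated kinase, had 57.9 and 56.3 RPKM against 52.6 and 66.2 RPKM (limma adjusted p = 0.848).

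Of 11 feedback genes of Erk signalling, 0 passed in limma (5 higher and 0 lower at an unadjusted p under 0.05, against 2634 of 11912 rows in either direction), and their median was 0.37. Both Naa10-KO libraries lay above WT for 8 (24.4% of all rows) and below for 1 (34.9%). Etv5, an Ets factor, stood at 105 and 107 RPKM in WT versus 153 and 172 RPKM in the knockout (limma adjusted p = 0.0964), and the Erk phosphatase gene Dusp6 at 54.3 and 53.0 RPKM against 81.4 and 66.9 RPKM (limma adjusted p = 0.16). The Sprouty genes Spry2 (119.6 and 108 RPKM against 120.0 and 136 RPKM) and Spry4 (116 and 111 RPKM against 102 and 166 RPKM) had limma adjusted p of 0.4 and 0.672.

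Genes that textbooks list as AP-1 targets differed mainly between the Naa10-KO libraries. Of 25 tested rows, 0 passed in limma (6 higher and 2 lower at an unadjusted p under 0.05, against 2634 of 11912 rows in either direction). The median difference was 0.52 over both libraries, but 0.92 in Naa10-KO replicate 1 and -0.04 in replicate 2, and 23 of 25 were higher in replicate 1 than in replicate 2, against 45.3% of all rows. The feeder markers given above were also higher in replicate 1, and their part in these values was not tested. The 4 most abundant genes of the list differed by less than 1.5-fold between the Naa10-KO libraries. The metallothionein gene Mt1 stood at 1041 and 1022 RPKM in WT versus 728 and 738 RPKM in the knockout (limma adjusted p = 0.0863). Mt2 stood at 1105 and 1168 RPKM against 976 and 741 RPKM (limma adjusted p = 0.236), Trp53 at 296 and 298 RPKM against 420.3 and 396 RPKM (limma adjusted p = 0.0987), and the secreted phosphoprotein gene Spp1 at 421 and 451 RPKM against 479 and 425 RPKM (limma adjusted p = 0.76).

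Gene structure did not enter the choice of the 10, and most of them were compact. In the GENCODE M21 annotation, 6 of the 10 had 1 or 2 exons in their longest coding transcript, against 6.42% of 10570 tested single-gene rows, and 4 (Junb, Jun, Jund and Ier2) had a single exon, against 2.19%. The gene span was under 5000 nt for 6 of the 10, against 10.7% of those rows. The other 4 spanned 5162 nt (Egr1), 8913 nt (Klf6), 22042 nt (Fosl2) and 47744 nt (Atf3). The pentamer ATTTA, the core of AU-rich elements, occurred in the longest coding transcript of 9 of the 10 (79.5% of the comparison rows), at a median of 1.24 per kilobase against 0.802. Ier3 had the most, 5 in 1131 nt, and Ier2 had 0. Junb, Jund and Ier2 are all on chromosome 8 and the other 7 genes on 7 different chromosomes. These are descriptions of the named genes. They do not separate Junb, with 2 ATTTA and 1 exon, from Jun, with 4 ATTTA and 1 exon, whose levels lay on opposite sides of WT.

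The rows with the most similar profile to Junb over the 4 libraries were sought among 7920 rows with a mean of at least 5 RPKM, by the Euclidean distance between values of log2(RPKM + 1) relative to the WT mean. The 3 nearest were Igfbp4, which binds insulin-like growth factors (distance 0.0944), Gdf3, a TGF-beta family ligand (0.151), and Gm8709 (0.218). For Egr1 the nearest included Mdm4, a p53 inhibitor (0.115), and Cflar, an inhibitor of death receptor signalling (0.129). Igfbp4 stood at 4.91 and 4.64 RPKM in WT versus 14.6 and 14.3 RPKM in the knockout, and Mdm4 at 25.7 and 24.6 RPKM against 11.1 and 10.4 RPKM. The likeness rests on 4 libraries in 2 groups and is a description only.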

How the data were processed

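The values are RPKM per library, per the file headers and as deposited by the authors, 1 table per library. The submitters' processing notes name mm9, Cufflinks and bedtools; for the aligner, annotation and strand setting these sources give nothing. There were 14099 named rows per table, 404 of them joined symbols, 270 small RNAs and 323 at exactly 0 in at least 1 library.

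Members and gene lists were chosen with earlier results of these data known. The 11912 rows reaching 1 RPKM in 2 or more of the 4 libraries were tested on log2(RPKM + 1) with limma 3.58.1 (R 4.3.3, mean-variance trend, two-sided, Benjamini-Hochberg over all rows, threshold 0.05), which had 2 residual and 1.94 borrowed degrees of freedom. Fold changes on this scale understate those of low genes. A permutation of 2 against 2 libraries cannot give a two-sided p below 0.333, so none was used. The fit was tested on simulated data in which both genotypes had the same spread. The real libraries did not, with a median absolute difference of 0.05 for WT and 0.25 for Naa10-KO. That test therefore does not vouch for the calls made here.

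Text names the 10 members, the Naa10 row, each list gene past the threshold, the 4 most abundant genes of each described list, and the 3 rows most like Junb and Egr1; some rows that the rule names are not reported here. Marker lists of ESC, feeder, endoderm and trophoblast cells are given mainly as sums and counts.

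Depth was estimated from steps of low values in genes with 1 GENCODE transcript, assuming 200 nt fragments. Over 400 genes, the mean chi-square between the WT libraries was 1.88 per gene, where sampling noise gives about 1, and both were kept; between the Naa10-KO libraries it was 48.8 over 425 genes. Reference transcripts and promoters are GRCm38, not mm9, and served for structure and sequence only. Python 3.11.15 and pandas 2.3.3 handled tables.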

Additional observations from a re-analysis of the deposited data

How the results depend on the processing

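With 2 libraries per genotype, the number of calls depended on the processing. Over all rows, 26 were called higher and 65 lower by limma. These became 16 and 24 with no filter on low values, 17 and 27 with the replicate block and 19 and 42 for rows with a mean of at least 5 RPKM. Without rows at 0 and small RNA rows, limma called 0 higher and 0 lower of 11660 rows (smallest adjusted p 0.0591, 2626 rows at an unadjusted p under 0.05). Of the members, Junb was no longer called there, leaving 0 higher. Egr1 was not called (0 lower) in that setting, with a mean of at least 5 RPKM, with no filter, with no trend or with the replicate block. Of the other lists, the 1 call, Bhlhe40, became 0 without rows at 0 and small RNA rows, with no filter, with no trend and with the replicate block. The same-numbered libraries are not said to be paired, and their deviations from the group means correlated at -0.215; a crossed pairing, added after seeing the data, gave 41 higher and 92 lower over all rows and 4 higher in the other lists.

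Leaving out a library makes its partner's spread stand on that of the other genotype, and the resulting counts are no guide to the library behind a call. They ran from 5 to 2820 higher and 7 to 4261 lower over all rows, from 0 to 4 higher and 0 to 5 lower among the members, and from 0 to 73 higher and 0 to 32 lower in the other lists.

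Of the genes named by rule, those below changed direction, each when a Naa10-KO library was left out; genes named after their values were seen were not rerun. Where the lower end came without Naa10-KO replicate 1 and the upper end without replicate 2, the log2 difference ran from -1 to 0.205 for Fos, -0.0346 to 1.22 for Ier3, -0.307 to 0.0323 for Klf6, -0.00625 to 0.156 for Atf1, -0.184 to 0.611 for Nab2, -0.0364 to 0.137 for Spp1, -0.719 to 1.28 for Col1a1, -0.2 to 1.17 for Thy1 and -0.0248 to 3.2 for Tagln. Where the lower end came without replicate 2 and the upper end without replicate 1, it ran from -0.094 to 0.503 for Maff, -0.0468 to 0.781 for Klf2, -0.745 to 0.0189 for Klf4, -0.439 to 0.0286 for Mcl1, -0.275 to 0.357 for Mapk3, -0.116 to 0.21 for Rps6ka1 and -0.154 to 0.541 for Spry4. No member changed direction under the pseudocount, filter, scaling, trend or block alternatives.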

Other observations

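Several genes picked after their values were seen lay at or below the limit of the tests, and their highest value was in Naa10-KO replicate 1. Egr4, a relative of Egr1, stood at 0.619 and 0.677 RPKM in WT versus 3.06 and 0.81 RPKM in the knockout replicates 1 and 2. The orphan nuclear receptor gene Nr4a3 stood at 0.313 and 0.375 RPKM in WT versus 3.01 and 0.586 RPKM in the knockout. Its relative Nr4a2, which entered the tests, stood at 1.01 and 0.876 RPKM against 4.62 and 0.821 RPKM (limma adjusted p = 0.504). Il6, a cytokine gene that AP-1 can induce, stood at 0.62 and 0.824 RPKM against 2.90 and 0.408 RPKM. Maf, a relative of the AP-1 factors, stood at 0.413 and 0.411 RPKM against 0.732 and 0.545 RPKM. For Nr4a2 and Il6, Naa10-KO replicate 2 lay below both WT libraries. The 7 tested markers of primitive endoderm and trophoblast had a median log2 difference of 0.58, with 5 apart upward (24.4% of all tested rows) and 0 past the threshold in limma. At an unadjusted limma p under 0.05, 2 were higher and 0 lower, against 2634 of 11912 rows in either direction. Among the 7, Krt8, a simple keratin, had the largest log2 difference, 1.36. It stood at 14.0 and 10.6 RPKM in WT versus 42.5 and 25.5 RPKM in the knockout (limma adjusted p = 0.138). The groups overlapped for 2, Gata4 and Dab2, with log2 differences of 0.0783 and -0.0771. The list joins markers of both cell types, so its median does not describe either type alone.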
